A study of Arabidopsis thaliana with 3 samples.

Results

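The loci described here are those that the deposited expression files place on the chloroplast genome of Arabidopsis thaliana. Every identifier whose position lies on that genome was taken, which gave 118 of 33857 identifiers. The remaining ones comprise 33587 on the nuclear chromosomes and 152 on the mitochondrial genome. The 118 chloroplast identifiers lie at 111 distinct positions between 71 and 14151 bp wide.

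The chloroplast genome is a small circular molecule present in many copies in each plastid. It encodes core subunits of the photosynthetic complexes, the large subunit of the carbon-fixing enzyme Rubisco, part of the plastid ribosome and RNA polymerase, and the plastid's ribosomal and transfer RNAs, while most other plastid proteins are encoded in the nucleus and imported. Many of its genes are transcribed together in operons, by a plastid-encoded polymerase with nuclear sigma factors or by a nuclear-encoded phage-type polymerase. A large inverted repeat carries the ribosomal RNA genes and separates a large from a small single-copy region, and mature plastid messengers mostly lack the stable poly(A) tail of nuclear ones.

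The study compared organs of wild-type Col-0 plants by strand-specific RNA sequencing, with 1 library each from leaf, silique (the fruit) and inflorescence. Plants grew under 16 h of light, were bombarded at 3 weeks with uncoated 0.6 µm gold particles that carried no plasmid, and were sampled 18 days later at 5.5 weeks. All 3 organs therefore share this bombardment, and no unbombarded plant is compared here. Organs are mixtures of cell types, and whether a library pooled several plants is not stated in the labels used here. With 1 library per organ no difference between organs has a replicate check, so values are described and no test is given.

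Values are FPKM, fragments divided by transcript length and by library size, as the authors deposited them. No fragment counts can be read from FPKM, so the depth is unknown, and a locus with a value of exactly 0 is called listed at 0. Positions are those of the files on the TAIR10 build, counted from 1. The files give neither names nor strand, so a locus was named when a chloroplast gene of the RefSeq table for TAIR10.1 had at least 50% of its length inside it. Of the 111 positions, 98 began exactly at a reference gene start and 104 held a reference gene. Their identifiers run along the genome in 2 ascending series, of 52 and 66 members.

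The organ labels fit their marker genes. RBCS1A, a small subunit of Rubisco, was listed at 21488 FPKM in leaf, 10868 in silique and 7169 in inflorescence, and the light-harvesting gene LHCA3 at 2049 in leaf, 1033 in silique and 310 in inflorescence. The petal and stamen identity genes PI and AP3 were highest in inflorescence, at 141 and 91.9 FPKM, and AP3 also reached 63.3 FPKM in silique. The seed storage genes SESA3 and CRA1 stood at 22796 and 6563 FPKM in silique.

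Chloroplast loci made up a small part of each library. They summed to 1278 FPKM in leaf, 1367 in silique and 355 in inflorescence, which is 0.1003% of all FPKM in leaf, 0.128% in silique and 0.0393% in inflorescence. These shares depend on width. Without loci under 200 bp they were 0.0213% in leaf, 0.0360% in silique and 0.0134% in inflorescence. With each FPKM multiplied by locus width they were 0.0141% in leaf, 0.0565% in silique and 0.0261% in inflorescence, so that leaf then lay below inflorescence. How RNA was selected before sequencing, by poly(A) capture or by removal of ribosomal RNA, is not given in the sources used here. In bulk organs, a smaller number of plastid-rich cells and less chloroplast RNA per cell cannot be told apart.

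Many of the loci carried no signal. Of the 118, 66 were listed at 0 in leaf, 61 in silique and 67 in inflorescence, and 59 were at 0 in all 3 organs. The median chloroplast locus was therefore 0 FPKM in leaf, silique and inflorescence, against 2.16, 4.06 and 4.10 FPKM over all 33857 loci. At least 1 FPKM was reached by 35 chloroplast loci in leaf, 47 in silique and 26 in inflorescence, and by 51 in any organ. That is 29.7% of them in leaf, 39.8% in silique and 22.0% in inflorescence, where all loci gave 54.5, 61.1 and 61.8%. Of the 152 mitochondrial loci, 53.3% were listed at 0 in leaf, 60.5% in silique and 64.5% in inflorescence. The median mitochondrial locus was also 0 FPKM in each organ, so these zeros are not limited to the chloroplast genome.

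Most chloroplast loci at 0 in every organ were of 2 kinds that can be read from the map. These were 32 in the inverted repeat and 22 outside it and narrower than 200 bp. The other 5 were rps16, rps15 and an identifier at each of 3 shared positions. The first kind is the inverted repeat. The files hold 16 mirrored pairs of positions, with equal widths in reverse order, and in all 16 the copies carry identifiers of different series. With rpl23 and rpl2 at the outer end of the second copy, 34 identifiers lie in the repeat copies, and 32 of them were at 0 in every organ. The exceptions were ribosomal RNA loci of the second copy with traces of signal. The locus from 131149 to 133958, ArthCr089 in the reference, was listed at 0 in leaf, 0.00850 FPKM in silique and 0.0247 FPKM in inflorescence. ArthCr088, from 136147 to 137637, was listed at 0 in leaf, 0.0485 FPKM in silique and 0 in inflorescence. Among the repeat loci at 0 were both copies of ycf2, at 6885 bp the widest locus with an identifier of its own and a gene for a large essential membrane protein, and both copies of ndhB, a subunit of the plastid NDH complex. Reads from an inverted repeat match both copies, and how the authors treated such reads is not given in the sources used here, so these zeros cannot be read as absence of RNA.

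The other kind is the narrow locus. Outside the repeat, 57 of 84 loci were above 0 in at least 1 organ, and 47 of the 52 that were 200 bp or wider. Of 32 single-copy loci under 200 bp, 22 were at 0 in all organs. All 18 single-copy transfer RNA loci of 71 to 92 bp were among these, including the narrowest, trnC for cysteine and trnG for glycine at 71 bp and trnR for arginine at 72 bp. The 3 single-copy transfer RNA loci of 668 to 897 bp, whose genes contain an intron, were above 0 in every organ. This trnG, from 8560 to 9456, had 3.37 FPKM in leaf, 5.93 in silique and 1.87 in inflorescence. The leucine gene trnL had 0.173 FPKM in leaf, 2.06 in silique and 0.568 in inflorescence, and the valine gene trnV 12.0 in leaf, 12.1 in silique and 5.65 in inflorescence.

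**Figure D1:**
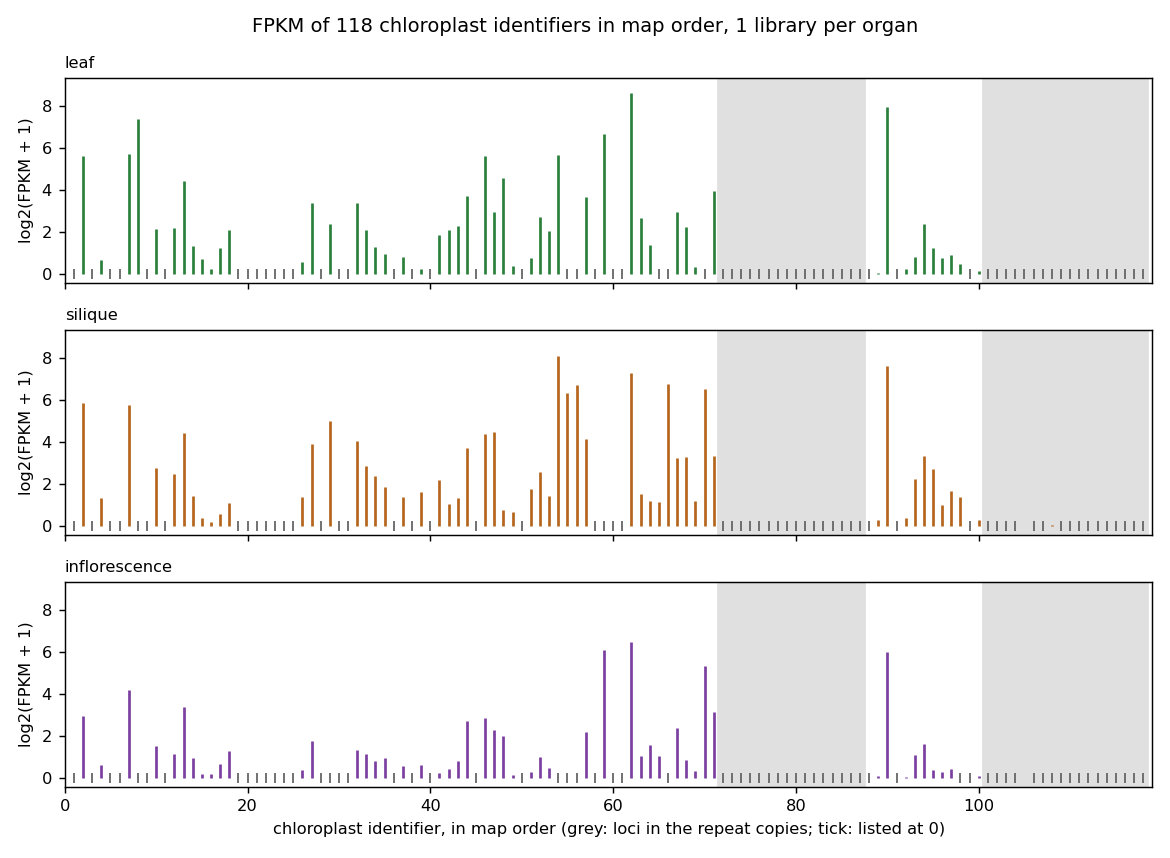
FPKM of the 118 chloroplast identifiers in map order, on a log2(FPKM + 1) axis, in leaf (top), silique (middle) and inflorescence (bottom), 1 library each; a tick marks a locus listed at 0 and grey bands mark the repeat copies. In the bands 32 of 34 loci are at 0 in every organ, and the tallest lines elsewhere reach 389 FPKM in leaf, 272 in silique and 88.6 in inflorescence.

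Position outside the repeat made less of a difference than the repeat itself. In the large single-copy region 43 of 67 loci were above 0 in some organ, and in the small single-copy region 10 of 13. The large single-copy loci summed to 1002 FPKM in leaf, 1041 in silique and 239.5 in inflorescence. Those of the small single-copy region summed to 257.6 FPKM in leaf, 216.3 in silique and 66.6 in inflorescence, most of it from the single narrow locus rpl32.

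Protein-coding loci followed the same split by width. Of 35 single-copy protein-coding loci of 200 bp or more, 32 were above 0 in every organ. The ribosomal protein gene rpl20 was at 0 in leaf alone, with 1.20 FPKM in silique and 1.05 in inflorescence, while rps16 and rps15, also for ribosomal proteins, were at 0 in all 3. Of 14 such loci under 200 bp, 3 were above 0 in every organ, 7 were at 0 in 1 or 2 organs and 4 (petN, psaI, petL and psbM, all for small photosynthetic subunits) in all. Over the whole series, 88 of the 112 narrow loci with any signal were at 0 in 1 or 2 organs, so this on-and-off pattern is not limited to the chloroplast genome.

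Where a narrow locus did have signal, its FPKM was mostly large. The 10 chloroplast loci under 200 bp with signal had medians of 101 FPKM in leaf, 105 in silique and 65.1 in inflorescence, each over the loci above 0 in that organ. For widths from 200 bp to under 1000 bp these medians were 3.23 FPKM in leaf, 1.87 in silique and 0.952 in inflorescence, and at 3000 bp or more they were 0.392 in leaf, 1.46 in silique and 0.367 in inflorescence. Loci under 200 bp thus held 78.9% of the chloroplast FPKM in leaf, 72.7% in silique and 66.4% in inflorescence. The Spearman correlation of width with FPKM over all 118 loci was 0.36 in leaf, 0.40 in silique and 0.45 in inflorescence, and over loci above 0 it was -0.53 in leaf (n = 52), -0.42 in silique (n = 57) and -0.31 in inflorescence (n = 51). The sign thus turns once loci at 0 are left out, both narrow and wide. Over the loci above 0 that lie outside the repeat and are 200 bp or wider, the correlation was -0.31 in leaf (n = 45), -0.08 in silique (n = 47) and -0.10 in inflorescence (n = 46). The same number of fragments gives a higher FPKM at a shorter locus, the loci share libraries, and these correlations are descriptions.

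**Figure D2:**
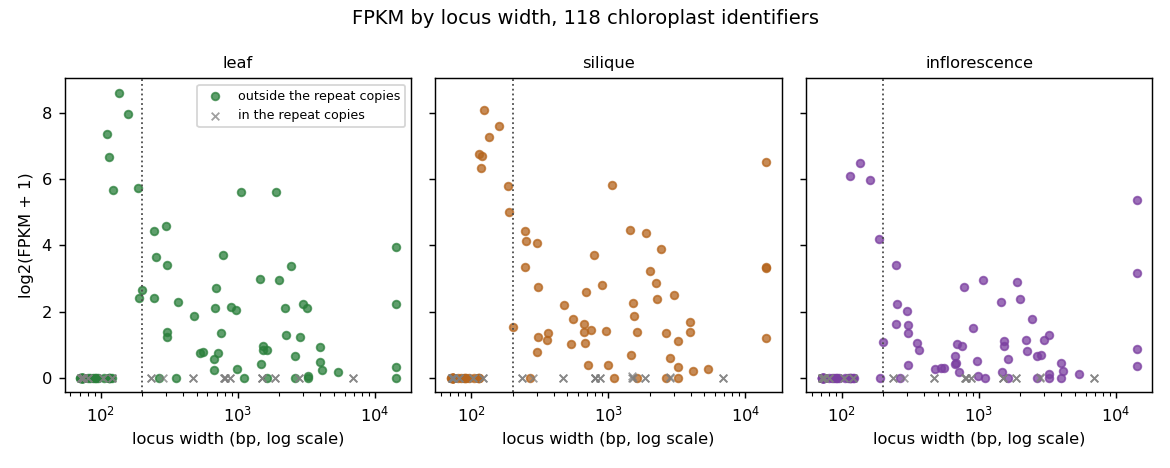
FPKM against locus width on a log axis in bp, for the 118 chloroplast identifiers in leaf, silique and inflorescence; the vertical axis is log2(FPKM + 1), crosses are loci in the repeat copies and the dotted line stands at 200 bp. Left of the line, 36 of 46 loci lie at 0 in every organ. Of the other 10, 7 are above 0 in leaf, 8 in silique and 4 in inflorescence, and they include the highest value of each panel.

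The highest chloroplast values came from these narrow loci. psaJ, a small subunit of photosystem I (66929 to 67063, 135 bp), had 389 FPKM in leaf, 154 in silique and 88.6 in inflorescence. rpl32, for a ribosomal protein of the large subunit (113449 to 113607, 159 bp), had 249 FPKM in leaf, 192 in silique and 62.2 in inflorescence. psbK, a small photosystem II subunit (7017 to 7202), had 51.9 FPKM in leaf, 54.0 in silique and 17.2 in inflorescence. These were the 3 narrow loci with signal in every organ, and inflorescence was lowest at each.

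Others appeared in some organs only. psbI, a small photosystem II subunit (7583 to 7693), had 164 FPKM in leaf and was listed at 0 in silique and inflorescence. petG, a small subunit of the cytochrome b6f complex (65998 to 66111), had 101 FPKM in leaf and 67.9 in inflorescence and was listed at 0 in silique. rps12, a small ribosomal subunit gene whose first part lies apart from the rest and whose messenger is joined by trans-splicing, was listed at 0 in leaf, 107 FPKM in silique and 0 in inflorescence (69611 to 69724). psbZ, of photosystem II (35751 to 35939), had 4.32 FPKM in leaf, 31.3 in silique and 0 in inflorescence. These loci are 111 to 189 bp wide, so a given number of fragments gives a higher FPKM there than at wider loci.

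The psbE, psbF, psbL and psbJ genes show this within 1 operon, since they lie side by side from 63538 to 64322 and are known to be transcribed together. psbE, for the alpha subunit of cytochrome b559 and 252 bp wide, had 11.6 FPKM in leaf, 16.6 in silique and 3.66 in inflorescence. psbF, for its beta subunit and 120 bp wide, was listed at 0 in leaf, 102 FPKM in silique and 0 in inflorescence, and psbL (117 bp) at 0 in leaf, 80.3 in silique and 0 in inflorescence. psbJ (123 bp) had 49.5 FPKM in leaf, 272 in silique and 0 in inflorescence. The widest of the 4 was therefore the only one above 0 in all organs, and each of the 4 was highest in silique.

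Across the organs, silique held the highest and inflorescence the lowest value at most chloroplast loci. Of the 59 loci above 0 anywhere, silique was highest at 41 (69.5%), leaf at 16 (27.1%) and inflorescence at 2 (3.39%). Among all loci with 1 highest organ, silique led at 31.9%, leaf at 34.1% and inflorescence at 34.0%. Of 54 chloroplast loci with 1 lowest organ, inflorescence was lowest at 40, or 74.1%, against 29.1% for all loci. Of 38 mitochondrial loci with at least 1 FPKM in some organ, leaf was highest at 84.2% and silique at 15.8%. Inflorescence was lowest at 57.9% of those mitochondrial loci. With the same filter, chloroplast loci were highest in leaf at 27.5%, highest in silique at 70.6% and lowest in inflorescence at 70.6%. Among chloroplast loci the order silique above leaf above inflorescence was the most frequent, at 30 loci, followed by leaf above silique above inflorescence at 10.

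By pair, leaf exceeded inflorescence at 46 of the 55 chloroplast loci whose values differed, or 83.6%, where all loci gave 44.0%. Silique exceeded inflorescence at 51 of 58, or 87.9%, against 50.2% for all loci. Leaf exceeded silique at 17 of 59, or 28.8%, against 44.4% for all loci. Among chloroplast loci of 200 bp or wider, leaf exceeded inflorescence at 81.3%, silique exceeded inflorescence at 87.8% and leaf exceeded silique at 26.5%, close to the shares with the narrow loci included. Of 38 mitochondrial loci with at least 1 FPKM in some organ, leaf exceeded inflorescence at 92.1% and silique exceeded inflorescence at 65.8%. Leaf exceeded silique at 84.2% of those mitochondrial loci. With the same filter, the chloroplast shares were 80.4%, 88.2% and 29.4% in the same order of pairs. Over the chloroplast loci above 0 in both organs, FPKM in leaf was a median 2.57 times that in inflorescence (48 loci). For silique against inflorescence this median quotient was 3.16 (50 loci), and for leaf against silique 0.687 (50 loci). Over all loci the median quotients of these 3 pairs were 0.995, 1.02 and 0.970. Over mitochondrial loci they were 5.71, 1.43 and 3.73. Summed FPKM of the whole library differed between organs, and scaling each library to the same sum shifts every log2 ratio of leaf over inflorescence by -0.50, of silique over inflorescence by -0.24 and of leaf over silique by -0.26. After that scaling, leaf was above inflorescence at 44 chloroplast loci and below it at 11, silique was above inflorescence at 49 and below it at 9, and leaf was above silique at 15 and below it at 44.

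Fewer loci passed a larger size of difference, a ratio of FPKM + 1 of 4 or more in which the higher organ had 5 FPKM or more. Leaf was above inflorescence by this measure at 7 chloroplast loci, where 8.11% of all eligible loci passed, and below it at 1, an identifier at the widest shared position, where 12.1% passed. The 7 were psbI, psbJ, atpE/atpB, psbA, psaJ, rps14 and a locus without a reference gene. Silique was above inflorescence at 11 loci (7.26% of all eligible loci) and below it at petG alone (5.52%). Those 11 were psbJ, rps12, psbF, psbL, psbZ, psbA, rps14, ndhE, rbcL, psbD/psbC and another identifier at that position. Leaf was above silique at psbI, petG and the locus without a reference gene (5.94% of all eligible loci), and below it at 6 (12.2%), namely rps12, psbF, psbL, psbZ, psbJ and the shared-position identifier that was also below inflorescence in leaf. Eligible chloroplast loci, with 5 FPKM in either organ of the pair, numbered 20 between leaf and inflorescence, 25 between silique and inflorescence and 29 between leaf and silique. In either direction, 8 of the 20, 12 of the 25 and 9 of the 29 passed, beside 20.2%, 12.8% and 18.1% of all eligible loci in the same pairs. Among loci of 200 bp or wider, 5 of 14 chloroplast loci passed between leaf and inflorescence, or 35.7%, above the 19.98% of all such loci. Between silique and inflorescence 6 of 16 passed, or 37.5%, above the 12.6% of all such loci. Between leaf and silique 2 of 19 passed, or 10.5%, below the 17.9% of all such loci. Of all eligible loci under 200 bp, 67.6% passed in that pair.

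Photosystem II converts light and splits water. psbA, for its D1 reaction centre protein (383 to 1444), had 47.6 FPKM in leaf, 56.0 in silique and 6.77 in inflorescence, a quotient of 7.03 for leaf over inflorescence and 8.27 for silique over inflorescence. The locus that holds psbD and psbC, for the D2 protein and an inner antenna protein (32711 to 35141), had 9.42 FPKM in leaf, 13.9 in silique and 2.40 in inflorescence. With psbE, all 3 photosystem II loci of 200 bp or wider were highest in silique and lowest in inflorescence, with leaf-over-silique quotients of 0.677 to 0.850.

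Silique was also highest at the photosystem I loci of 200 bp or wider, and inflorescence lowest at 4 of the 5, ycf3 being the exception. psaA and psaB, for the reaction centre pair, lie next to each other. psaA (39605 to 41857) had 1.47 FPKM in leaf, 4.16 in silique and 0.770 in inflorescence, and psaB (37375 to 39579) 3.32 in leaf, 6.33 in silique and 1.23 in inflorescence. rps14, for a small-subunit ribosomal protein, follows in the same operon (36938 to 37240) and had 9.52 FPKM in leaf, 15.7 in silique and 1.54 in inflorescence. psaC, for the subunit with the terminal iron-sulphur centres (117318 to 117563), had 4.30 FPKM in leaf, 9.10 in silique and 2.08 in inflorescence. The assembly factor genes had 0.951 FPKM in leaf, 2.64 in silique and 0.965 in inflorescence at ycf3, and 0.700 in leaf, 2.43 in silique and 0.224 in inflorescence at ycf4. Leaf-over-silique quotients of these 5 photosystem I loci ran between 0.288 and 0.525, and narrow psaJ, at 2.52, was the photosystem I locus with leaf above silique.

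rbcL, for the large subunit of Rubisco (54958 to 56397), had 6.85 FPKM in leaf, 21.1 in silique and 3.93 in inflorescence. Its leaf-over-silique quotient was 0.325, although RBCS1A, for the nuclear-encoded partner subunit, was higher in leaf than in silique. RBCS1A has close paralogs in the nuclear genome between which reads may be split. RNA selection is not given, so the nuclear and the chloroplast value may not be like measures. Beyond the gene, from 56493 to 56792 and in the other identifier series, lies a 300 bp locus with no reference gene. It had 23.1 FPKM in leaf, 0.735 in silique and 3.09 in inflorescence, a leaf-over-silique quotient of 31.4, the reverse of its neighbour. The other single-copy locus without a reference gene, from 31684 to 32351, had 0.499 FPKM in leaf, 1.60 in silique and 0.335 in inflorescence.

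ATP synthase makes ATP from the proton gradient across the thylakoid. The locus with atpE and atpB, subunits of its catalytic head (52265 to 54156), had 47.4 FPKM in leaf, 19.8 in silique and 6.38 in inflorescence, so that leaf led by a quotient of 2.39 over silique. The other ATP synthase loci lie in a separate cluster and lay closer together in leaf and silique, with leaf-over-silique quotients of 0.791 to 0.988. atpH, for the membrane ring, had 20.4 FPKM in leaf, 20.6 in silique and 9.54 in inflorescence. atpA/atpF had 3.64 in leaf, 4.61 in silique and 1.20 in inflorescence, and atpI 1.53 in leaf, 1.72 in silique and 0.952 in inflorescence. rps2, which is transcribed with this cluster, had 0.672 FPKM in leaf, 0.316 in silique and 0.139 in inflorescence.

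The cytochrome b6f complex passes electrons from photosystem II to photosystem I. petA, for cytochrome f (61657 to 62619), had 3.17 FPKM in leaf, 1.69 in silique and 0.426 in inflorescence, and was thus highest in leaf. The adjacent cemA, for an envelope membrane protein (60741 to 61430), had 5.52 FPKM in leaf, 4.97 in silique and 1.04 in inflorescence. Its small lead of leaf over silique turned round when libraries were scaled to equal sums. ccsA, for an assembly factor of c-type cytochromes, was among the lowest loci with signal everywhere, with 0.208 FPKM in leaf, 0.298 in silique and 0.0456 in inflorescence.

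The NDH complex takes part in cyclic electron flow around photosystem I, and its loci of 200 bp or wider with signal differed in their highest organ. In the large single-copy region ndhC, ndhK and ndhJ lie side by side (48677 to 50363). ndhC had 3.86 FPKM in leaf, 1.57 in silique and 0.777 in inflorescence, and ndhK 3.30 in leaf, 1.07 in silique and 0.368 in inflorescence, so both were highest in leaf. ndhJ, from the same cluster, had 2.66 FPKM in leaf, 3.55 in silique and 0.212 in inflorescence. In the small single-copy region silique was highest at each NDH locus. There ndhD had 0.776 FPKM in leaf, 3.79 in silique and 1.14 in inflorescence. ndhE had 1.36 in leaf, 5.66 in silique and 0.312 in inflorescence, and ndhG 0.685 in leaf, 1.03 in silique and 0.222 in inflorescence. An interval that holds ndhI, ndhA and ndhH carries 2 identifiers, at 0.914 and 0.392 FPKM in leaf, 2.19 and 1.63 in silique, and 0.367 and 0 in inflorescence.

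The plastid-encoded RNA polymerase genes rpoB, rpoC1 and rpoC2 departed from the common order, with silique lowest and leaf highest. These 3 genes form an operon known to be read by the nuclear-encoded polymerase. rpoB (23111 to 26329) had 3.28 FPKM in leaf, 1.15 in silique and 1.46 in inflorescence, and rpoC1 (20251 to 23084) 1.34 in leaf, 0.511 in silique and 0.597 in inflorescence. rpoC2, at the far end of the operon, had 0.180 FPKM in leaf, 0.153 in silique and 0.163 in inflorescence, a leaf-over-silique quotient of 1.18, and its lead in leaf over both other organs turned round under the scaling to equal sums. Along the operon the FPKM level, which is per length, was highest at rpoB, lower at rpoC1 and lowest at rpoC2 in each organ. accD, for a subunit of the fatty-acid enzyme acetyl-CoA carboxylase and also known as a target of that polymerase, did not share this order, with 0.326 FPKM in leaf, 0.614 in silique and 0.123 in inflorescence.

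Ribosomal protein loci were mixed. rpl33 had 5.29 FPKM in leaf, 1.87 in silique and 1.11 in inflorescence. Its neighbour rps18 had 1.62 FPKM in leaf, 1.33 in silique and 2.04 in inflorescence and was 1 of the 2 loci with their highest value in inflorescence. clpP, for the proteolytic subunit of the plastid Clp protease (69910 to 71917), had 6.70 FPKM in leaf, 8.36 in silique and 4.21 in inflorescence. ycf1, for a large protein linked to protein import (123884 to 129244), was low at 0.128 FPKM in leaf, 0.213 in silique and 0.0862 in inflorescence.

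**Figure D3:**
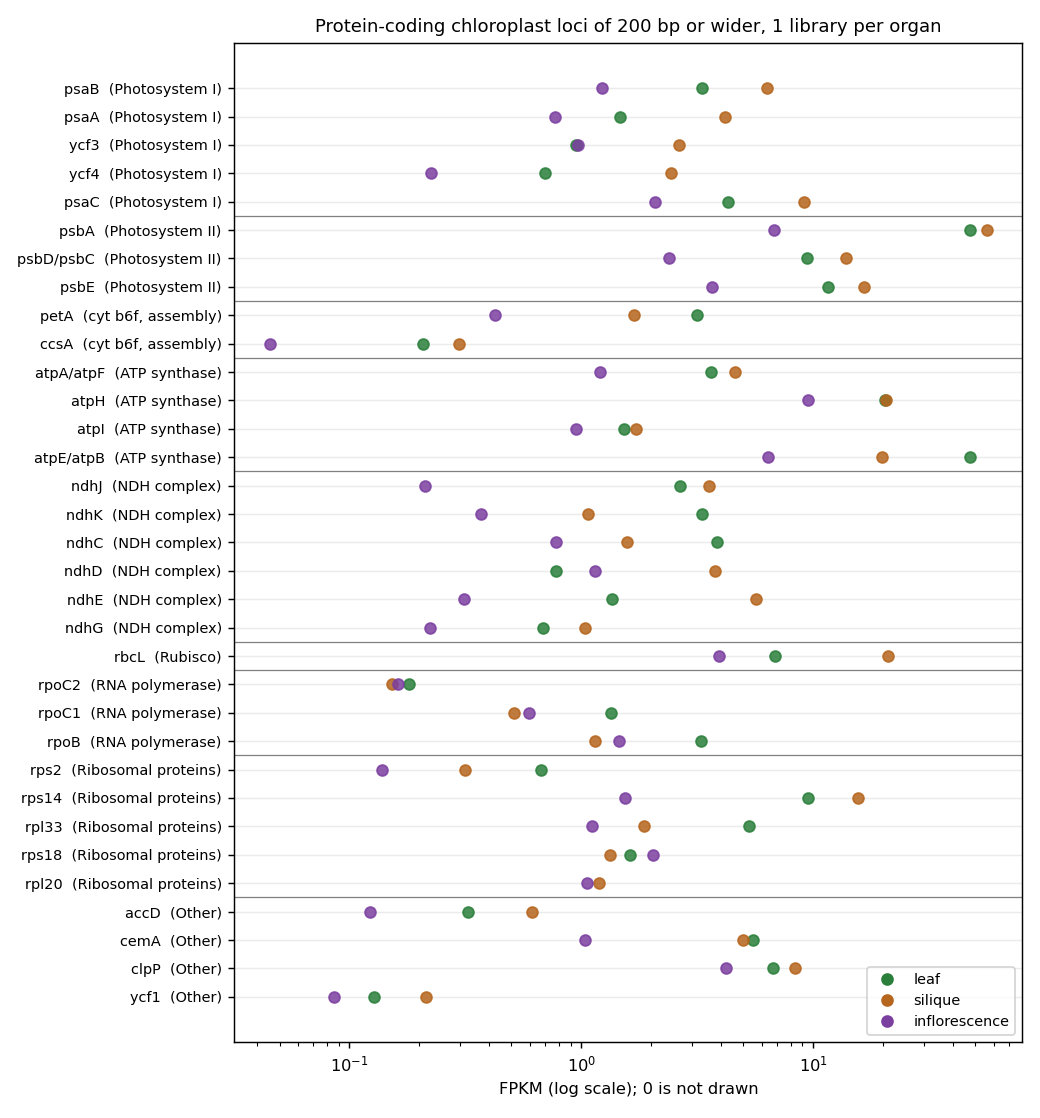
FPKM on a log axis of the single-copy protein-coding chloroplast loci of 200 bp or wider with signal, grouped by role, with 1 point each for leaf, silique and inflorescence; a value of 0 is not drawn. The inflorescence point is leftmost in most rows, and the leaf point lies right of silique at the 3 polymerase genes, at rpoB with 3.28 FPKM in leaf against 1.15 in silique.

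Several identifiers could not be tied to a gene, because 12 of them share 5 positions. The widest position, 72091 to 86241, carries 4 identifiers over 17 reference genes from psbB, for a photosystem II antenna protein, to rpl23, for a ribosomal protein, and crosses into the repeat. From the first series, one identifier had 3.68 FPKM in leaf, 8.89 in silique and 0.844 in inflorescence, and the other 0.262 in leaf, 1.30 in silique and 0.270 in inflorescence. From the second series, one was listed at 0 in leaf, 90.1 FPKM in silique and 39.9 in inflorescence, and the other at 14.4 in leaf, 9.13 in silique and 7.96 in inflorescence. The transcript length behind each is not given, so these 4 values cannot be assigned to genes of the interval. At the positions of trnK with matK (1717 to 4347), trnS with rps4 (44210 to 45828) and ycf1 with ndhF (109405 to 112638), 1 of the 2 identifiers was at 0 in every organ. The other had 0.594 FPKM in leaf, 1.58 in silique and 0.569 in inflorescence at trnK with matK, 0.797 in leaf, 1.63 in silique and 0.483 in inflorescence at trnS with rps4, and 0.0476 in leaf, 0.251 in silique and 0.0909 in inflorescence at ycf1 with ndhF.

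Nuclear genes of the same complexes were higher in leaf than in silique, which was so at fewer of the chloroplast loci. Of 29 listed nuclear subunits of photosystems, cytochrome b6f, ATP synthase, Rubisco and NDH, 23 were named, and all 23 were higher in leaf than in silique, by 0.76 to 2.06 on the log2(FPKM + 1) scale (median 1.35). Their median was 2010 FPKM in leaf, 915 in silique and 487 in inflorescence. NdhN, of the NDH complex, had 283 FPKM in leaf, 67.2 in silique and 36.6 in inflorescence, and PSAL, of photosystem I, 3292 in leaf, 1138 in silique and 540 in inflorescence. Among chloroplast loci of 200 bp or wider, the median leaf-over-silique log2 ratio was -0.93 over 5 photosystem I loci. It was -0.48 over 3 photosystem II loci, and rbcL had -1.49. With narrower loci included, leaf was above silique at 1 of 6 photosystem I loci with signal, psaJ. For photosystem II this was so at 1 of 9, psbI. At 200 bp or wider, the other complexes lay closer to 0 or on the leaf side. Their medians were -0.29 for NDH over 6 loci (highest 1.06) and -0.06 for ATP synthase over 4 (highest 1.22). For cytochrome b6f and cytochrome assembly the median was 0.26 over 2, of which ccsA stayed under 1 FPKM in every organ. Both sets were lowest in inflorescence at most members. How RNA was selected is not given, and plastid messengers mostly lack a stable poly(A) tail, so nuclear and chloroplast FPKM may not be like measures. The difference between nuclear and chloroplast genes was not tested, since each organ has 1 library.

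Nuclear genes for the plastid expression machinery were also mostly highest in leaf. All 5 named nuclear plastid ribosomal protein genes of 9 listed were higher in leaf than in silique, for example RPS1 with 467 FPKM in leaf, 233 in silique and 194 in inflorescence and PRPL11 with 338 in leaf, 247 in silique and 198 in inflorescence. The 6 named genes of 8 for phage-type polymerases and sigma factors did the same. Sigma factors guide the plastid-encoded polymerase to promoters. Among the 6, AT5G15700 alone is a phage-type polymerase, with 5.23 FPKM in leaf, 3.07 in silique and 3.02 in inflorescence. SCA3, also listed as a phage-type polymerase, was not named and has no value here. SIGC had 46.2 FPKM in leaf, 11.2 in silique and 13.3 in inflorescence, and SIGA 93.7 in leaf, 30.5 in silique and 23.9 in inflorescence. Of 11 named genes of 12 for proteins associated with the plastid-encoded polymerase, 10 were higher in leaf than in silique and all 11 were lower in silique than in inflorescence, among them PTAC6 with 105 FPKM in leaf, 36.6 in silique and 44.4 in inflorescence and PTAC2 with 20.7 in leaf, 8.30 in silique and 11.1 in inflorescence. Their order between leaf and inflorescence depended on scaling, with 9 of 11 higher in leaf as deposited and 2 of 11 after scaling to equal sums.

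**Figure D4:**
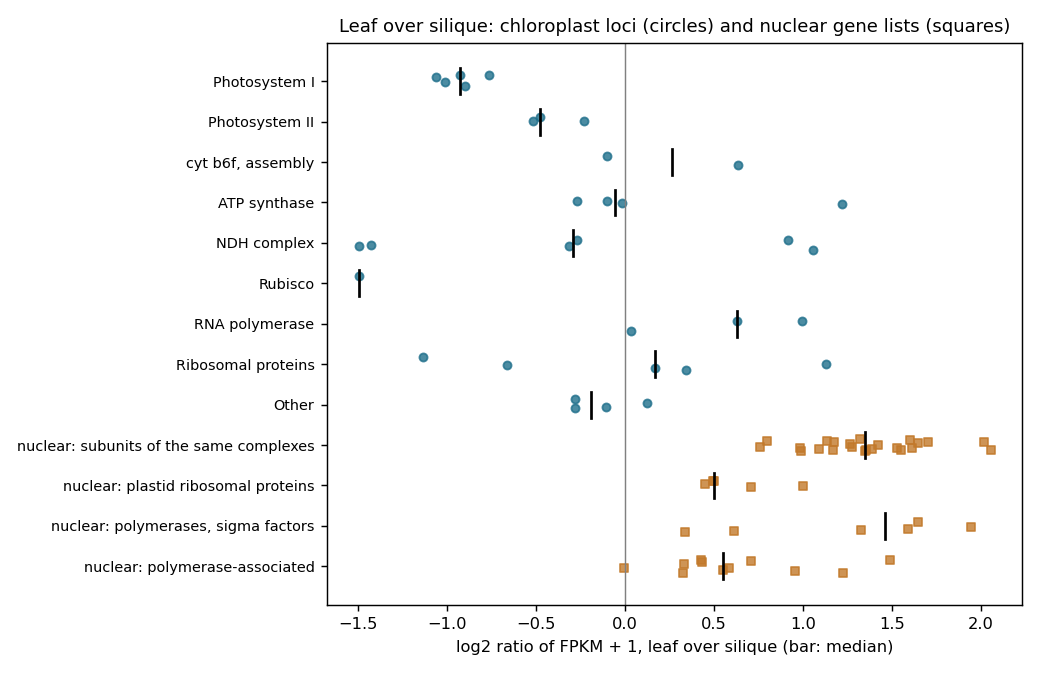
Log2 ratio of FPKM + 1, leaf over silique, for single-copy chloroplast protein-coding loci of 200 bp or wider with signal, by role (circles), and for 4 lists of nuclear genes for plastid proteins (squares); bars mark medians and 0 means equal values. Photosystem I (median -0.93) and rbcL (-1.49) lie on the silique side and the chloroplast RNA polymerase genes (0.63) on the leaf side, as do the nuclear subunits of the same complexes (1.35).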

How the data were processed

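Total RNA from 1 leaf, 1 silique and 1 inflorescence sample was purified on RNeasy columns and treated with Turbo DNase, per the labels' protocols. FPKM values per identifier were deposited by the authors. TopHat and TAIR10 are named in the submitters' processing notes. RNA selection, the gene annotation, how FPKM was computed, which TopHat version ran and how multiply mapping reads were treated are not named in the sources used here. Fragment counts are not in the values, so depth is unknown and no counting interval is given.

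Loci were selected by chromosome, 1 was added to each start, and names came from the RefSeq table (129 plastid entries). Repeat copies were found from mirrored positions. Ratios used log2(FPKM + 1), which understates the change of low loci. Quotients used plain FPKM. Medians of log2 ratios over all chloroplast loci used those with at least 1 FPKM in some organ. Medians of leaf over silique by role used single-copy loci of 200 bp or wider that were above 0 in some organ. Only the 4-fold counting rule was tested on simulated data, with known folds planted at loci of high FPKM. That simulation did not cover medians, quotients, loci listed at 0 or locus width. Python 3.11.15, numpy 2.4.6, pandas 2.3.3, scipy 1.17.1 and matplotlib 3.10.9 were used. Members and gene lists were chosen with earlier results of these data known. Named loci were the 10 highest by mean, the 5 lowest above 0 in every organ, those past 4-fold, up to 10 listed at 0 in 1 or 2 organs, the 3 widest and 3 narrowest, and the 2 of widest span per role and nuclear list. The other loci were added to show neighbours and operons. Alternatives were other pseudocounts, thresholds, scalings and locus filters.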

Additional observations from a re-analysis of the deposited data

How the results depend on the processing

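No paired analysis was possible because each organ has 1 library, and for the same reason no library could be left out. Values were compared with those under other settings, and a change beyond 1.5 times was counted as a move. Of 75 values, 49 stayed within that factor and 26 moved. With a floor of 5 FPKM, 19 chloroplast loci were detected in leaf, 24 in silique and 10 in inflorescence. Without loci under 200 bp, the chloroplast share of summed FPKM was 0.0213% in leaf, 0.0360% in silique and 0.0134% in inflorescence, and the median locus 0.546 FPKM in leaf, 1.17 in silique and 0.291 in inflorescence. Without repeat loci, a choice made after seeing the data, the median was 0.633 FPKM in leaf, 1.32 in silique and 0.223 in inflorescence. Weighting FPKM by locus width gave shares of 0.0141% in leaf, 0.0565% in silique and 0.0261% in inflorescence, which turned round the order of leaf and inflorescence. The 14151 bp shared position held 38.2% of the weighted chloroplast sum in leaf, 77.9% in silique and 86.2% in inflorescence. Median log2 ratios of 0.78 for leaf over inflorescence and 1.16 for silique over inflorescence were 0 without the 1 FPKM filter, since the loci at 0 enter. Loci past 4-fold in either direction numbered 8 for leaf over inflorescence, and 15 at 2-fold, 3 at 8-fold and 5 without loci under 200 bp. For silique over inflorescence they numbered 12, and 7 with a pseudocount of 5, 21 at 2-fold, 6 at 8-fold and 6 without loci under 200 bp. For leaf over silique they numbered 9, and 15 at 2-fold and 2 without loci under 200 bp. Scaling to equal summed FPKM turned round the direction at trnK with matK and rpoC2 for leaf over inflorescence, at rpl20 and an identifier of the widest position for silique over inflorescence, and at cemA and rpoC2 for leaf over silique. Unknown depth limits every low value.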
